A study of Mus musculus with 31 samples.

Results

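Transcript levels of 10 genes for cyclic nucleotide phosphodiesterases were examined in the caudate putamen (CPu), the dorsal part of the striatum, of 31 female mice. The genes were *Pde1a*, *Pde1b*, *Pde1c*, *Pde2a*, *Pde4a*, *Pde4b*, *Pde4d*, *Pde7b*, *Pde8b* and *Pde10a*. They were found by matching Ensembl identifiers to mouse gene symbols, and all 10 were present among the 52636 genes of the table. All 10 passed the filter on low values in every comparison. The mice were 8 to 11 weeks old, of the strain labelled C57BL/6NTac-Brd1, and were either WT or *Brd1*+/-, that is, heterozygous for a deletion in *Brd1*, which encodes a chromatin reader protein. They were administered saline (vehicle) or imipramine (IMN, a tricyclic antidepressant) at 10 mg/kg, which gave 8 WT vehicle, 7 *Brd1*+/- vehicle, 8 WT IMN and 8 *Brd1*+/- IMN mice. Per the study's methods, mice of all groups, the vehicle groups included, had gone through behavioral tests of despair and activity with injections before the brain was taken, and the right CPu was punched from frozen slices. Values are TPM, a transcript level scaled to gene length, so that different genes of a mouse can be set side by side.

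Phosphodiesterases hydrolyze cAMP and cGMP, the intracellular messengers made by adenylyl and guanylyl cyclases, and so end signals that run through protein kinase A and protein kinase G. In striatal projection neurons cAMP is raised by dopamine D1 receptors and, in other projection neurons, adenosine receptors and lowered by dopamine D2 receptors. The PDE1 enzymes are activated by calcium and calmodulin and act on both messengers. PDE2A is stimulated by cGMP, the PDE4 enzymes are specific for cAMP and are inhibited by rolipram, PDE7B and PDE8B are cAMP-specific enzymes insensitive to rolipram, and PDE10A acts on both messengers and is known for its abundance in striatal projection neurons.

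On the mouse genome GRCm38, with GENCODE M21 annotation, the PDE1 genes lie at chr2:79834453-80129458 (*Pde1a*, minus strand), chr15:103503034-103530052 (*Pde1b*, plus strand) and chr6:56069804-56569103 (*Pde1c*, minus strand). *Pde2a* lies at chr7:101421691-101512827 on the plus strand. The PDE4 genes lie at chr9:21165714-21213248 (*Pde4a*), chr4:102087543-102607259 (*Pde4b*) and chr13:108449948-109953461 (*Pde4d*), all on the plus strand. *Pde7b* lies at chr10:20398004-20725078 and *Pde8b* at chr13:95024454-95250336, both on the minus strand, and *Pde10a* at chr17:8525372-8986648 on the plus strand. Exons of *Pde2a* overlap those of *Gm45837* on the same strand, which reached 0.642 TPM at most, and exons of *Pde8b* overlap those of *Gm48420* on the opposite strand, which reached 7.07 TPM. How reads in these overlaps were divided was not tested.

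Promoters are shown for *Pde1b*, *Pde7b* and *Pde10a*, whose levels moved together across all 31 mice (Pearson's r of 0.96 to 0.97 on log2(TPM + 1)). Over the 23 mice that remain without the 8 libraries set apart below, they did so less. There r was 0.28 for *Pde1b* with *Pde7b*, 0.56 for *Pde1b* with *Pde10a* and 0.35 for *Pde7b* with *Pde10a*. Each promoter is the 250 bases before a RefSeq transcription start (build GRCm38.p6), read 5′ to 3′ on the strand of the gene. That of *Pde1b* (chr15:103502784-103503033) ends at the first base before the annotated gene, whereas those of *Pde7b* (chr10:20548329-20548578) and *Pde10a* (chr17:8801495-8801744) lie inside their annotated genes, before a start other than the outermost one.
Pde1b: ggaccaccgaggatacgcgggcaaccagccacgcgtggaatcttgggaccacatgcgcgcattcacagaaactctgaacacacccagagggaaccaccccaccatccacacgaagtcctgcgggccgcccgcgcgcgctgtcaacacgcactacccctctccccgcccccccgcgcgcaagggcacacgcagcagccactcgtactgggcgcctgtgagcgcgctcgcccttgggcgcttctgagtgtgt
Pde7b: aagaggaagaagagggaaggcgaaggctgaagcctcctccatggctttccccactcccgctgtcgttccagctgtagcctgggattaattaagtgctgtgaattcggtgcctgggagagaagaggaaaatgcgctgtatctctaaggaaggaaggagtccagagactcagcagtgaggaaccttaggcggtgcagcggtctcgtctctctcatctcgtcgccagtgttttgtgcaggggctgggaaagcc
Pde10a: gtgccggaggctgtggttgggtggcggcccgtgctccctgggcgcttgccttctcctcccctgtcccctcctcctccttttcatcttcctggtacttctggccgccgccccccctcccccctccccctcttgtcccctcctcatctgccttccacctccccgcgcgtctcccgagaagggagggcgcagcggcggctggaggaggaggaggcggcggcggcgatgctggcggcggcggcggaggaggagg

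The G and C content of these promoters was 67.2% for *Pde1b*, 55.2% for *Pde7b* and 72.8% for *Pde10a*, against a median of 52.4% over all 32851 promoters of the RefSeq table. They held 26, 10 and 21 CpG, respectively, against a median of 6. These values are for the first listed start of each gene. The other listed starts of *Pde1b* had 44.8% and 50% with 0 and 1 CpG, and that of *Pde10a* had 56% with 4 CpG. Gene-level TPM does not show which start is used. The 31 listed promoters of the 10 genes were also searched on both strands for the cAMP response element TGACGTCA and for its shorter form, TGACG or CGTCA, which is contained in the full element. The full element was in 0 of the 31, and in 1.55% of all promoters. The shorter form was in 3 of the 31 (9.68%), and in 17.8% of all promoters. These 3 are printed with the match in capitals, since the element is the sequence that a cAMP-activated transcription factor is known to bind. They are 1 promoter each of *Pde1a* (chr2:80038903-80039152, minus strand), *Pde4a* (chr9:21183851-21184100, plus strand) and *Pde4b* (chr4:102421305-102421554, plus strand), and all 3 lie inside the annotated genes.
Pde1a: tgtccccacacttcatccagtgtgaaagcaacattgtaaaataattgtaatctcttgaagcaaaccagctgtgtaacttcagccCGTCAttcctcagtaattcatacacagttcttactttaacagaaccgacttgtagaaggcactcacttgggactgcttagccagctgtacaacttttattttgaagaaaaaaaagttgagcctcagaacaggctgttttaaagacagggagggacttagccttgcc
Pde4a: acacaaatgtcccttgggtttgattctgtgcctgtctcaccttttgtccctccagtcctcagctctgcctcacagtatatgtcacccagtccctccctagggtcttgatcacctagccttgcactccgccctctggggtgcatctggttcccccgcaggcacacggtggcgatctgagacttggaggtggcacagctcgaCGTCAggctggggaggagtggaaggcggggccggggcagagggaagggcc
Pde4b: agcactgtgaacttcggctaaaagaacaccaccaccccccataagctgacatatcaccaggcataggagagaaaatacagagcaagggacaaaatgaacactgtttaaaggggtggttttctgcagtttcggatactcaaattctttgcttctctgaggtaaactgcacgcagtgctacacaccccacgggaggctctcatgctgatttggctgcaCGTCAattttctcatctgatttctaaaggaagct

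Before the levels are compared, 8 libraries need to be set apart. The mean log2(TPM + 1) of 10 genes that mark cortical excitatory neurons was 4.52 to 6.04 in 8 mice and 1.51 to 3.93 in the other 23. Of these 8 mice, 6 were WT vehicle mice (1, 2, 3, 4, 5 and 7), 2 were WT IMN mice (5 and 8) and 0 were *Brd1*+/-. The mean of 10 markers of striatal projection neurons was 3.17 to 8.34 in the same 8 mice and 8.35 to 8.79 in the other 23. The summed cortical markers ranged from 113 to 1974 TPM in WT vehicle, 119 to 316 TPM in *Brd1*+/- vehicle, 102 to 1131 TPM in WT IMN and 103 to 446 TPM in *Brd1*+/- IMN mice. The summed striatal markers ranged from 273 to 9933, 7995 to 9463, 4763 to 8863 and 6550 to 9203 TPM in the same order, so striatal markers were abundant in every group, with WT vehicle mouse 2 the lowest. No gene of either list was at 0 throughout a group. Punches were bulk tissue, in which fewer cells of a type and less RNA per cell cannot be told apart.

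*Brd1* itself was 18.3 to 26.9 TPM in WT and 11.1 to 16.0 TPM in *Brd1*+/- vehicle mice, and 14.6 to 22.5 and 11.3 to 13.8 TPM in the IMN groups. The genotype groups did not overlap under either treatment, and the log2 fold change was −0.71 under vehicle and −0.60 under IMN (adjusted p = 0.0556 and 0.0396, limma). In WT vehicle mouse 7 the 4 Y-linked genes measured summed to 26.8 TPM, where no other mouse exceeded 0.188 TPM and all mice are labelled female, and members called in a comparison that holds this mouse are also given without it.

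*Pde1b* was the most abundant of the 10 genes, with a lowest, median and highest level of 56.8, 945.6 and 1163 TPM over the 31 mice. It ranked first in 29 mice, and *Pde2a* ranked first in the remaining 2, WT vehicle mice 1 and 2. *Pde10a* followed with a median of 488.9 TPM and *Pde2a* with 362.9 TPM. *Pde1b* exceeded *Pde10a* in 31 of 31 mice, but *Pde10a* exceeded *Pde2a* in 24 of 31, and these latter genes overlapped within each of the 4 groups.

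*Pde7b* had a median of 121.3 TPM, *Pde4b* 77.3 TPM, *Pde8b* 60.9 TPM and *Pde4a* 45.9 TPM. *Pde7b* was above *Pde4b* in 27 mice, *Pde4b* above *Pde8b* in 27 and *Pde8b* above *Pde4a* in 24. The lowest medians were those of *Pde1a* (22.4 TPM), *Pde4d* (15.0 TPM) and *Pde1c* (8.26 TPM). The order of *Pde1a* and *Pde4d* was not fixed, since *Pde1a* was the higher in 19 of 31 mice and had the higher group median in 2 of the 4 groups.

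The genes differed in how much they varied. *Pde10a* spanned 15.1 to 607 TPM, a 40.2-fold range, *Pde1a* 24.3-fold, *Pde1c* 23.6-fold, *Pde1b* 20.5-fold and *Pde7b* 12.2-fold. *Pde4d* spanned 9.61 to 20.2 TPM (2.1-fold), *Pde2a* 2.41-fold and *Pde8b* 2.54-fold. Most of the span of *Pde1b* and *Pde7b* lay in the 8 mice set apart: over the other 23 mice it was 1.53-fold for *Pde1b*, 1.61-fold for *Pde7b* and 2.42-fold for *Pde10a*, while *Pde1a* still spanned 6.12-fold and *Pde1c* 5.62-fold.

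**Figure D1:**
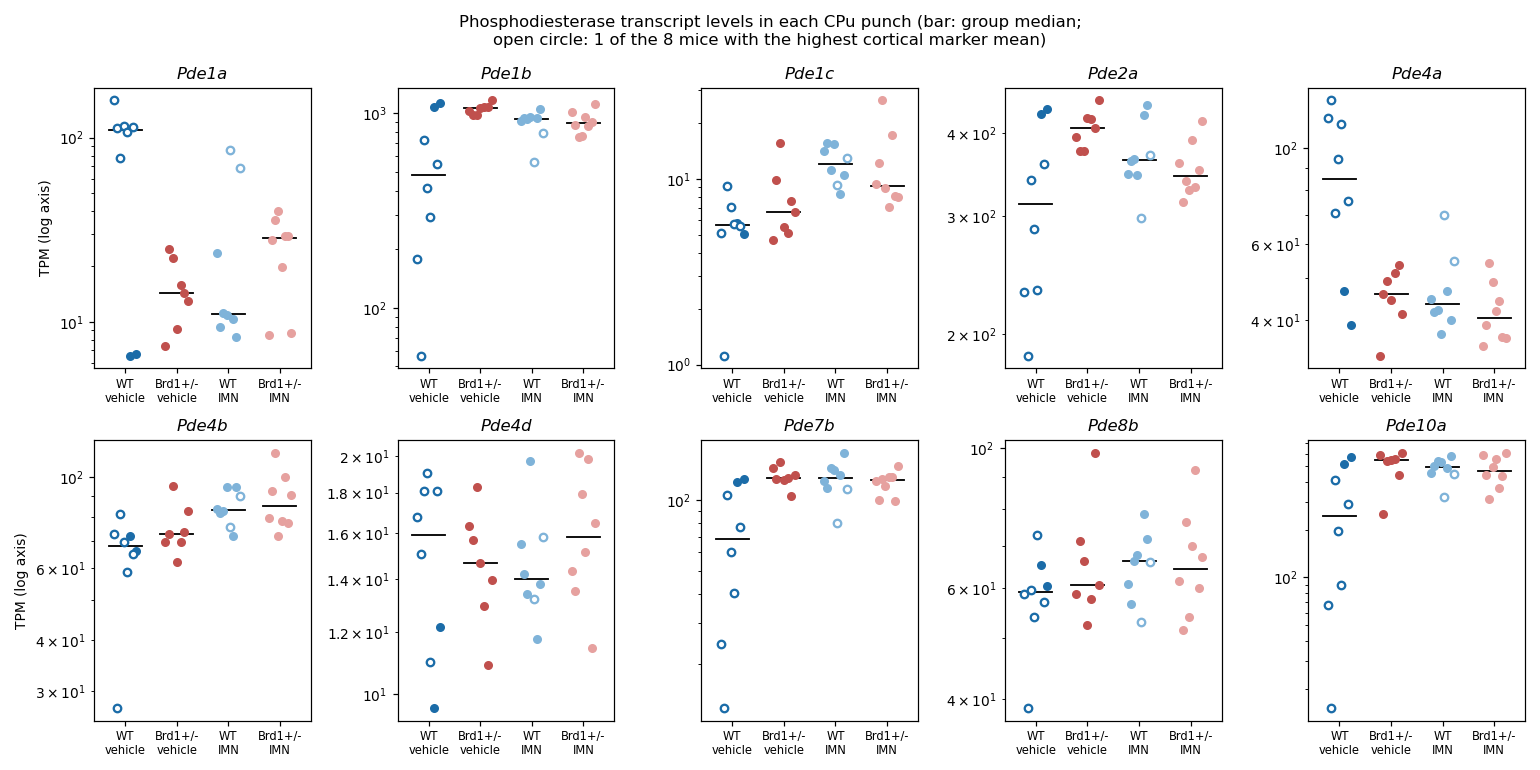
TPM of each of the 10 genes on a log axis in every mouse, by group, with the group median as a bar and the 8 mice of high cortical marker mean as open circles. In the 6 open circles of the WT vehicle group *Pde1a* and *Pde4a* lay above and *Pde1b* below all 23 filled circles, and mouse 3 for *Pde7b* (105 TPM) and mice 3 and 7 for *Pde10a* (408 and 290 TPM) lay within the range of the filled ones, while WT vehicle mice 6 and 8 (filled) lay with the other groups for *Pde1b*, *Pde7b* and *Pde10a*.

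As shares of the summed TPM of the 10 genes, *Pde1b* held a median of 32.7% in WT vehicle, 45.3% in *Brd1*+/- vehicle, 42.5% in WT IMN and 43.8% in *Brd1*+/- IMN mice. *Pde1a* held a median of 7.97% in WT vehicle mice and 0.628%, 0.498% and 1.43% in the other groups. In WT vehicle mouse 2, *Pde2a* (31.2%), *Pde4a* (21.7%) and *Pde1a* (19.1%) led, and *Pde1b* held 9.54% and *Pde10a* 2.54%. In WT vehicle mouse 8, *Pde1b* held 46.0%, *Pde10a* 23.4% and *Pde1a* 0.272%, so the WT vehicle group held both patterns.

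**Figure D2:**
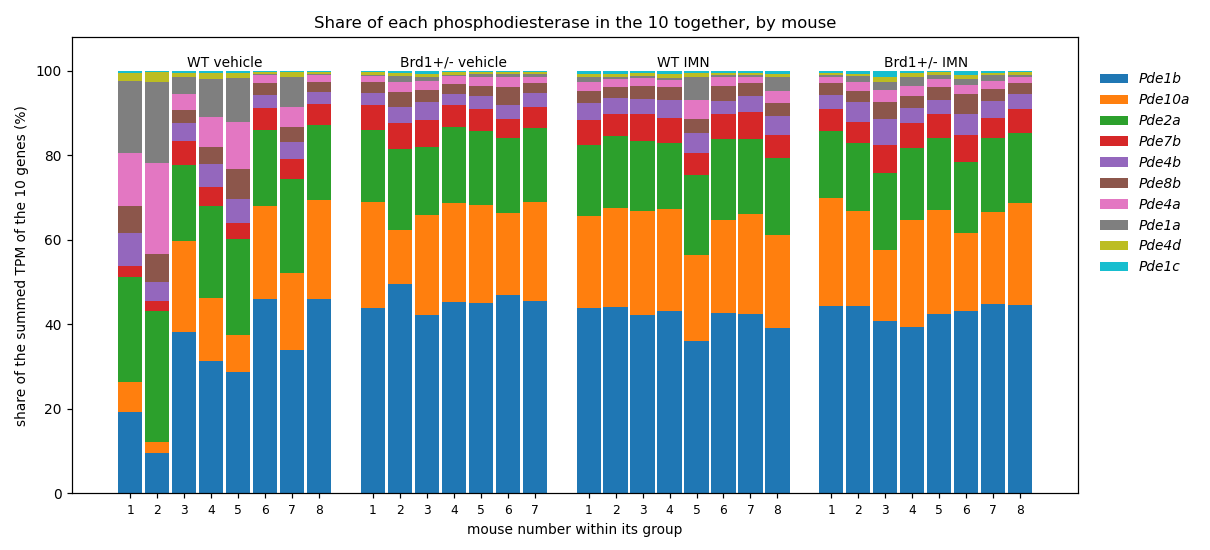
Stacked bars give each gene's percent of the summed TPM of the 10 genes, 1 bar per mouse, in 4 groups. In the 7 *Brd1*+/- vehicle mice *Pde1b* lies between 42.3% and 49.6%, whereas *Pde1b* ranges from 9.54% to 46.0% in the WT vehicle group.

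The first comparison asked how *Brd1*+/- mice differed from WT mice under vehicle. *Pde1a*, a calmodulin-dependent enzyme, and *Pde4a*, a rolipram-sensitive cAMP-specific enzyme, fell in *Brd1*+/- mice at the study's nominal threshold of p under 0.01, and no member rose. At that threshold 13.6% of the 23200 genes tested were called (12.1% lower and 1.47% higher), and the 2 of 10 members are near that background. At a false discovery rate (FDR) of 5%, 0 genes were called, members included (limma with Benjamini-Hochberg adjustment), although 30.9% of genes, and 6 of the 10 members, had an unadjusted p under 0.05. This count of 0 rested on single libraries: without WT vehicle mouse 6, 4563 genes and 5 members (*Pde1a*, *Pde1b*, *Pde2a*, *Pde4a* and *Pde7b*) passed an FDR of 5%, and without mouse 8, 5482 genes and 6 members (with *Pde10a*), these being the 2 WT vehicle mice not set apart. The median log2 fold change was 0.35 over the 10 members and −0.13 over all genes tested.

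*Pde1a* was 6.56, 110.2 and 159 TPM (lowest, median, highest) in WT vehicle and 7.37, 14.3 and 24.8 TPM in *Brd1*+/- vehicle mice. The 6 WT mice set apart lay above every *Brd1*+/- mouse, and the other two, mice 6 and 8, lay below all of them. The log2 fold change of TPM + 1 was −1.93 ± 0.65 (SE, adjusted p = 0.0723, limma). Without WT vehicle mice 6 or 8 or *Brd1*+/- vehicle mouse 2 it stayed under the threshold (unadjusted p of 0.000619, 0.000669 and 0.00989), with adjusted p of 0.0130 and 0.0105 without mice 6 and 8, and leaving out any other mouse ended the call, with unadjusted p up to 0.0214, mouse 7 included (−1.78, adjusted p = 0.121), as did an exact permutation test (p = 0.0230).

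*Pde4a* was 38.9, 84.9 and 129 TPM in WT vehicle and 33.1, 45.9 and 53.5 TPM in *Brd1*+/- vehicle mice. The same 6 WT mice lay above every *Brd1*+/- mouse. The log2 fold change was −0.80 ± 0.23 (SE, with an adjusted p = 0.0556 in limma and p = 0.00963 in an exact permutation test), and it passed the nominal threshold in all 15 fits that left out a mouse (unadjusted p up to 0.00819).

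*Pde1b*, *Pde7b* and *Pde10a* did not pass the threshold in limma. *Pde1b* was 56.8, 479.9 and 1126 TPM in WT vehicle and 973, 1062 and 1163 TPM in *Brd1*+/- vehicle mice, with a log2 fold change of 1.40 ± 0.50 (SE, with an adjusted p = 0.0802 in limma and p = 0.0135 in an exact permutation test). *Pde10a* was 15.1, 242 and 574 TPM against 251, 549 and 602 TPM, with 1.52 ± 0.63 (SE, with an adjusted p = 0.116 in limma and p = 0.0345 in an exact permutation test). *Pde7b* was 13.0, 68.7 and 124 TPM against 104, 125 and 145 TPM, with 1.15 ± 0.40 (SE, with an adjusted p = 0.0746 in limma and p = 0.00979 in an exact permutation test). For *Pde1b*, 6 of the 8 WT mice lay below every *Brd1*+/- mouse, for *Pde7b* 5 and for *Pde10a* 4, and the groups overlapped in each case. Leaving out 1 library brought *Pde1b* under the nominal threshold without WT vehicle mouse 2, 3, 6 or 8 (log2 fold changes of up to 1.62) and *Pde7b* without mouse 3, 6 or 8 (1.28 to 1.31).

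*Pde2a*, the cGMP-stimulated enzyme, was 185.5, 313 and 435 TPM in WT vehicle and 376, 407 and 447 TPM in *Brd1*+/- vehicle mice, a log2 fold change of 0.44 ± 0.16 (SE, with an adjusted p = 0.0908 in limma and p = 0.0270 in an exact permutation test) that also missed the threshold, though not without WT vehicle mouse 6 or 8 (0.51 each). *Pde1c* had a log2 fold change of 0.44, *Pde4b* of 0.27 and *Pde8b* of 0.18, with adjusted p of 0.318, 0.316 and 0.386 (limma). These 3 estimates rested in part on single mice, since they were 0.22, 0.11 and 0.10 without WT vehicle mouse 2, *Pde1c* was 0.27 without *Brd1*+/- vehicle mouse 3 and *Pde8b* 0.08 without *Brd1*+/- vehicle mouse 6, and 0 of them passed in any of the 15 fits. *Pde4d*, a further cAMP-specific enzyme, had −0.01 (95% interval −0.32 to 0.31).

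These differences moved with the marker lists. All 10 cortical markers were lower and all 10 striatal markers higher in *Brd1*+/- than in WT vehicle mice, with median log2 fold changes of −2.03 and 1.63 and with 8 and 10 of them at p under 0.05. When the 6 WT vehicle mice set apart were left out, a choice made after the data were seen, 2 WT and 7 *Brd1*+/- mice remained. *Pde1a* was then 1.00 higher on the log2 scale in *Brd1*+/- mice (adjusted p = 0.945), *Pde4a* 0.08 (adjusted p = 0.970), *Pde1b* −0.07 (adjusted p = 0.947), *Pde7b* 0.05 (adjusted p = 0.975) and *Pde10a* −0.16 (adjusted p = 0.960), and 0.892% of genes were called. With cortical markers as a covariate *Pde4a* had −0.28 (adjusted p = 0.572), and 0 members were called with them or with the striatal markers, where the share over all genes was 1.93% and 1.28%. With TPM rescaled by median-of-ratios, which moved the median over all genes from −0.13 to 0.002, *Pde1b* (1.59), *Pde2a* (0.63) and *Pde7b* (1.34) passed the nominal threshold as higher, *Pde4a* (−0.61) as lower and *Pde1a* did not, and 1209 of 2141 called genes were lower, against 2811 of 3153 as deposited.

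**Figure D3:**
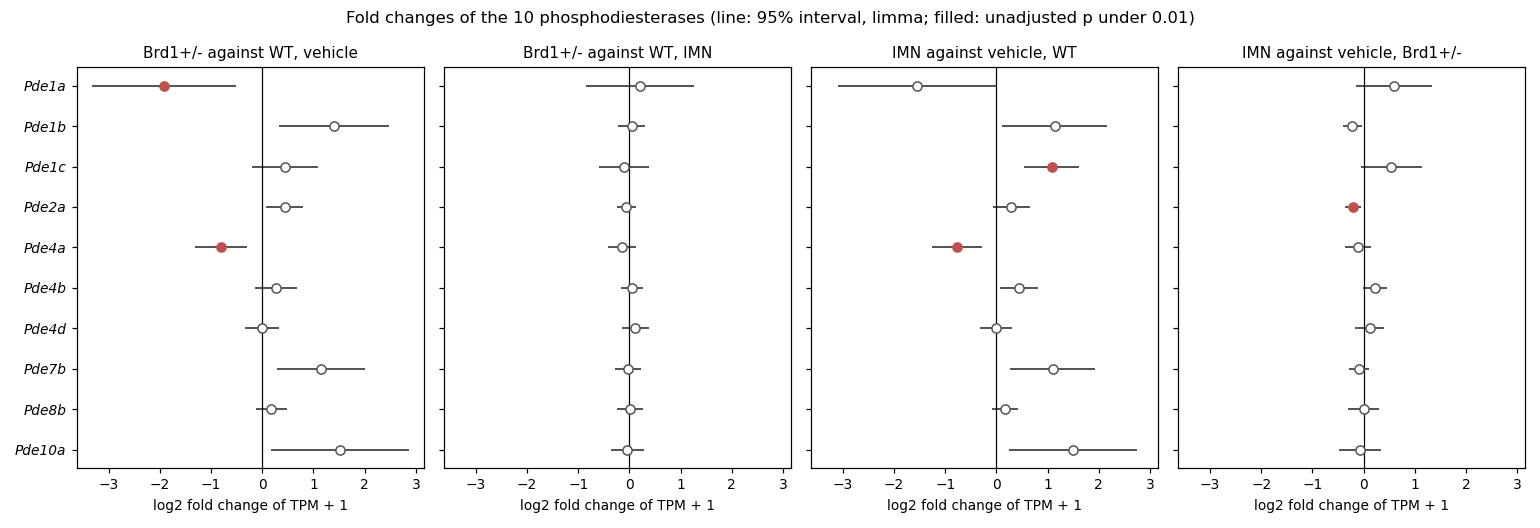
Log2 fold change of TPM + 1 of each gene in the 4 comparisons of 2 groups, with its 95% interval from limma as a line and members at p under 0.01 filled. *Pde1a* and *Pde4a* are filled under vehicle, 0 members for genotype under IMN, *Pde1c* and *Pde4a* for IMN in WT and *Pde2a* for IMN in *Brd1*+/- mice.

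The next comparison asked whether the genotypes differed under IMN. No member was called (0 of 10 at p under 0.01, limma, with 0 of 10 at p under 0.05), where 0.703% of 23339 genes were called (0.189% higher and 0.514% lower) and 3.92% had an unadjusted p under 0.05. *Brd1* was the only gene at an FDR of 5% (0.00428% of genes). The estimates ran from −0.15 for *Pde4a* to 0.21 for *Pde1a* on the log2 scale, and leaving out 1 mouse moved these to between −0.20 and −0.07 and between 0.06 and 0.52, with 0 members called in the 16 fits. The 95% interval was widest for *Pde1a*, −0.82 to 1.25, and was −0.20 to 0.28 for *Pde1b*, −0.34 to 0.26 for *Pde10a* and −0.27 to 0.20 for *Pde7b*.

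*Pde1b* was 564, 937.9 and 1047 TPM in WT IMN and 758, 887.5 and 1120 TPM in *Brd1*+/- IMN mice, and *Pde10a* was 321, 495 and 583 TPM against 310.5, 466 and 607 TPM. The groups overlapped for every member, with the lowest WT values of *Pde1b* in mice 5 and 8. Without these mice, which had high cortical markers, *Pde1a* was 0.87 higher in *Brd1*+/- mice (adjusted p = 1.00), and no member was called. As deposited, 120 of the 164 called genes were lower, and 89 of 158 after median-of-ratios scaling.

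The effect of IMN in WT mice was compared on the same 8 WT vehicle mice as the first comparison, so that the values of both share those controls. *Pde1c*, the calmodulin-dependent enzyme of lowest level here, rose with IMN and *Pde4a* fell, as did 1.35% and 5.6% of 23579 genes (6.95% in either direction), and 7 of the 10 members had p under 0.05 against 23.1% of genes. At an FDR of 5%, 1 gene was called (0.00424%) and 0 members, but 1176 genes and 2 members (*Pde1c* and *Pde4a*) without WT vehicle mouse 6 and 2459 genes and 3 members (with *Pde7b*) without mouse 8. The median log2 fold change was 0.37 over the members and −0.08 over all genes. As deposited 1321 of 1639 called genes were lower, and 735 of 1409 after median-of-ratios scaling.

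*Pde1c* was 1.12, 5.66 and 9.10 TPM in WT vehicle and 8.26, 12 and 15.6 TPM in WT IMN mice. There were 7 IMN mice above every vehicle mouse, and the groups overlapped through vehicle mouse 3 and IMN mouse 6 alone. The mean rose from 5.57 ± 2.24 (SD, n = 8) to 12.1 ± 2.75 TPM (SD, n = 8), a log2 fold change of 1.08 ± 0.24 (SE, with an adjusted p = 0.141 in limma and p = 0.000311 in an exact permutation test).

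The call of *Pde1c* held at p under 0.01 without the 8 mice set apart (1.04 over 2 vehicle and 6 IMN mice, adjusted p = 0.309) and in all 16 fits that left out a mouse (0.86 to 1.18, unadjusted p up to 0.00101). With the cortical or the striatal marker mean as a covariate it was 0.97 (adjusted p = 0.716) and 0.65 (adjusted p = 0.803). All 5 erythrocyte markers were also lower in WT IMN mice, 2 of them at p under 0.01, with summed levels of 211 to 403 TPM under vehicle and 163 to 323 TPM under IMN, and their part in the result was not tested.

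*Pde4a* was 38.9, 84.9 and 129 TPM in WT vehicle and 37.1, 43.4 and 69.8 TPM in WT IMN mice, a log2 fold change of −0.77 ± 0.23 (SE, with an adjusted p = 0.141 in limma and p = 0.00979 in an exact permutation test). Of the vehicle mice, 6 lay above every IMN mouse, all of them mice set apart, and the highest IMN values were those of mice 5 and 8. It passed the nominal threshold in all 16 fits that left out a mouse (unadjusted p up to 0.00809), mouse 7 included (−0.78, adjusted p = 0.208). Without the 8 mice the difference was −0.02 (adjusted p = 0.969).

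*Pde4b*, the cAMP-specific enzyme next in level to *Pde7b*, was 27.3, 67.9 and 81.1 TPM in WT vehicle and 71.8, 83.1 and 94.7 TPM in WT IMN mice, with 6 IMN mice above every vehicle mouse. Its log2 fold change of 0.44 ± 0.17 (SE, adjusted p = 0.154) missed the nominal threshold in limma, and an exact permutation test of the same difference gave p = 0.00124. Vehicle mouse 2 held the lowest value, and without it the estimate was 0.28 and passed the nominal threshold (unadjusted p of 0.00225, adjusted p = 0.215), as it did without vehicle mouse 3 (0.50, adjusted p = 0.149). Without the 8 mice it was 0.29 (adjusted p = 0.514).

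*Pde10a* (1.49, adjusted p = 0.160), *Pde1b* (1.14, adjusted p = 0.175), *Pde7b* (1.10, adjusted p = 0.144) and *Pde1a* (−1.54, adjusted p = 0.212) had large estimates that did not pass the threshold in limma in WT mice. Of the 16 fits that left out a mouse, *Pde7b* passed in 4 (without vehicle mouse 3, 6 or 8 or IMN mouse 5), *Pde1a* and *Pde10a* in 2 (vehicle mouse 6 or 8) and *Pde1b* in 1 (vehicle mouse 8, 1.36). Without vehicle mouse 2 *Pde1b* was 0.74 (adjusted p = 0.257). Without the 8 mice they were −0.08, −0.21, 0.11 and 0.72. The cortical markers had a median log2 fold change of −1.96 (10 of 10 lower) and the striatal markers of 1.45 (10 of 10 higher) in this comparison. *Pde2a*, *Pde8b* and *Pde4d* had 0.29, 0.17 and −0.01, with adjusted p of 0.277, 0.361 and 0.983, and without vehicle mouse 2 the first 2 were 0.19 and 0.09.

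**Figure D4:**
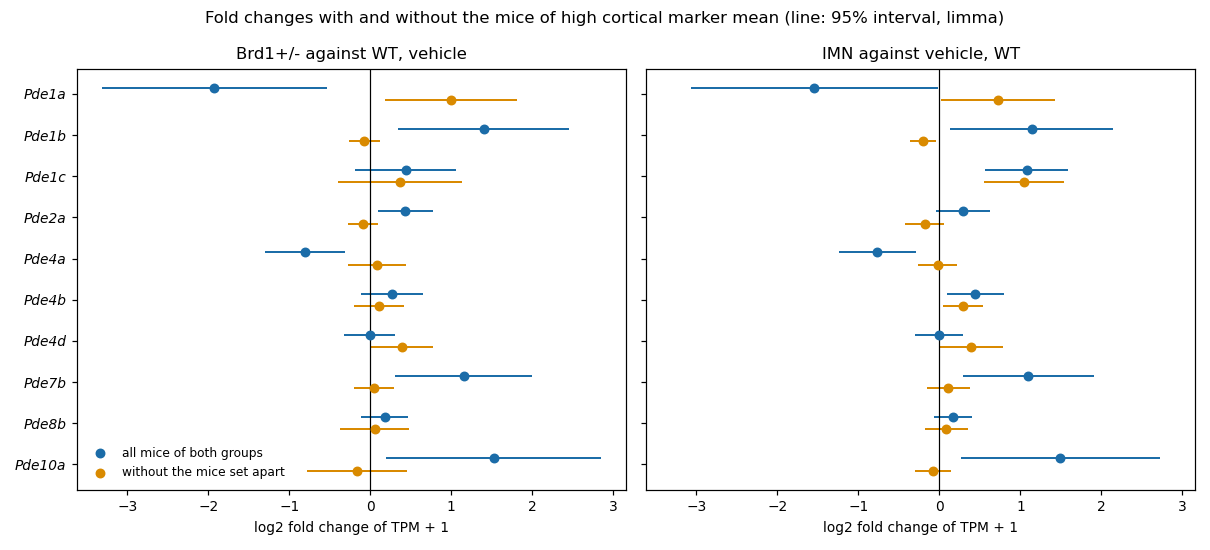
Log2 fold change of TPM + 1 with 95% intervals from limma, over all mice of the 2 groups (blue) and without the mice of high cortical marker mean (orange), for *Brd1*+/- against WT under vehicle (2 WT and 7 *Brd1*+/- mice left) and for IMN against vehicle in WT (2 and 6 mice left). *Pde1a* goes from −1.93 to 1.00 and from −1.54 to 0.72, and *Pde1c* from 1.08 to 1.04 with IMN in WT.

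In *Brd1*+/- mice, none of which was set apart, *Pde2a* fell with IMN, as did 0.964% of 23020 genes (1.83% in either direction and 0.869% higher), and no member rose. *Pde2a* was 376, 407 and 447 TPM in vehicle and 315, 345 and 417 TPM in IMN mice, with 6 of 8 IMN mice below every vehicle mouse. The log2 fold change was −0.20 ± 0.06 (SE, with an adjusted p = 0.517 in limma and p = 0.00746 in an exact permutation test), and 0 genes were called at an FDR of 5%, where 1633 (7.09%) had an unadjusted p under 0.05. It passed the nominal threshold in 7 of the 15 fits that left out a mouse, with unadjusted p up to 0.0168 in the other 8, and had −0.05 (adjusted p = 0.987) with the striatal marker mean as a covariate. All 10 striatal markers were lower with IMN, with a median log2 fold change of −0.19.

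*Pde1b* was 973, 1062 and 1163 TPM in vehicle and 758, 887.5 and 1120 TPM in IMN administered *Brd1*+/- mice, a log2 fold change of −0.22 ± 0.08 (SE, with an adjusted p = 0.598 in limma and p = 0.0188 in an exact permutation test). Of the IMN mice, 6 lay below every vehicle mouse, and the difference passed the nominal threshold without IMN mouse 1 (−0.24, adjusted p = 0.563) or 8 (−0.26, adjusted p = 0.404). *Pde1c* was 4.69, 6.58 and 15.7 TPM against 7.01, 9.10 and 26.4 TPM (0.54 ± 0.27, SE, adjusted p = 0.730) and *Pde1a* 7.37, 14.3 and 24.8 TPM against 8.48, 28.4 and 40.1 TPM (0.59 ± 0.34, SE, adjusted p = 0.760). *Pde4b* had 0.23 (adjusted p = 0.691), and *Pde10a*, *Pde7b*, *Pde4a*, *Pde8b* and *Pde4d* had estimates from −0.11 to 0.12 with unadjusted p of 0.291 or more.

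Whether the effect of IMN differed between the genotypes was tested over all 31 mice, which again include the 8 WT vehicle mice. *Pde7b* passed the nominal threshold, with a log2 difference, *Brd1*+/- minus WT, of −1.19 ± 0.42 (SE, adjusted p = 0.261, limma), where 3.74% of 25394 genes were called (0.78% lower and 2.97% higher) and 0 at an FDR of 5%, with 4119 (16.2%) at an unadjusted p under 0.05. *Pde7b* went from a mean of 70.5 to 123 TPM in WT and from 126 to 119 TPM in *Brd1*+/- mice. It passed in 14 of 31 fits that left out a mouse. Without WT vehicle mouse 7 it had −1.25 (adjusted p = 0.314) and *Pde2a* also passed (−0.53, adjusted p = 0.314), and without the 8 mice set apart the difference was −0.20 (adjusted p = 1.00).

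*Pde1a* had a difference of 2.14 (adjusted p = 0.262), *Pde1b* −1.36 (adjusted p = 0.261), *Pde10a* −1.56 (adjusted p = 0.267), *Pde2a* −0.49 (adjusted p = 0.261) and *Pde4a* 0.65 (adjusted p = 0.263), none of which passed. They passed in 4, 3, 2, 6 and 3 of the 31 fits that left out a mouse, each of them without WT vehicle mouse 6 and without mouse 8. Without the 8 mice these were −0.12, −0.01, 0.01, −0.02 and −0.09. For *Pde1c* the difference was −0.54 (adjusted p = 0.479), or −0.32 without WT vehicle mouse 2, so its rise with IMN in WT mice was not shown to differ from the 0.54 in *Brd1*+/- mice. As deposited 198 of 951 called genes had a negative difference, and 400 of 805 after median-of-ratios scaling, which also brought *Pde2a* (−0.63) under the threshold.

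Across the 31 mice 6 of the 10 members followed a marker mean closely. Pearson's r on log2(TPM + 1), given as a description of points that share mice and the fixed sum of TPM, was 0.99 between *Pde1b* and the striatal marker mean, 0.97 for *Pde7b*, 0.96 for *Pde10a* and 0.88 for *Pde2a*. It was 0.94 between *Pde1a* and the cortical marker mean and 0.86 for *Pde4a*. Among the 23 mice not set apart it was 0.84 for *Pde1b* and 0.82 for *Pde2a* but 0.36 for *Pde7b* and 0.35 for *Pde10a*, and 0.78 for *Pde1a* and 0.40 for *Pde4a*. *Pde4b* (0.76), *Pde1c* (0.61) and *Pde8b* (0.52) had lower r with the striatal marker mean over all mice. Among the 23 mice these were −0.31, −0.43 and 0.19, so the positive r of *Pde4b* and *Pde1c* rested on the mice set apart. *Pde4d* had −0.09 with the striatal and 0.16 with the cortical marker mean over all mice.

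**Figure D5:**
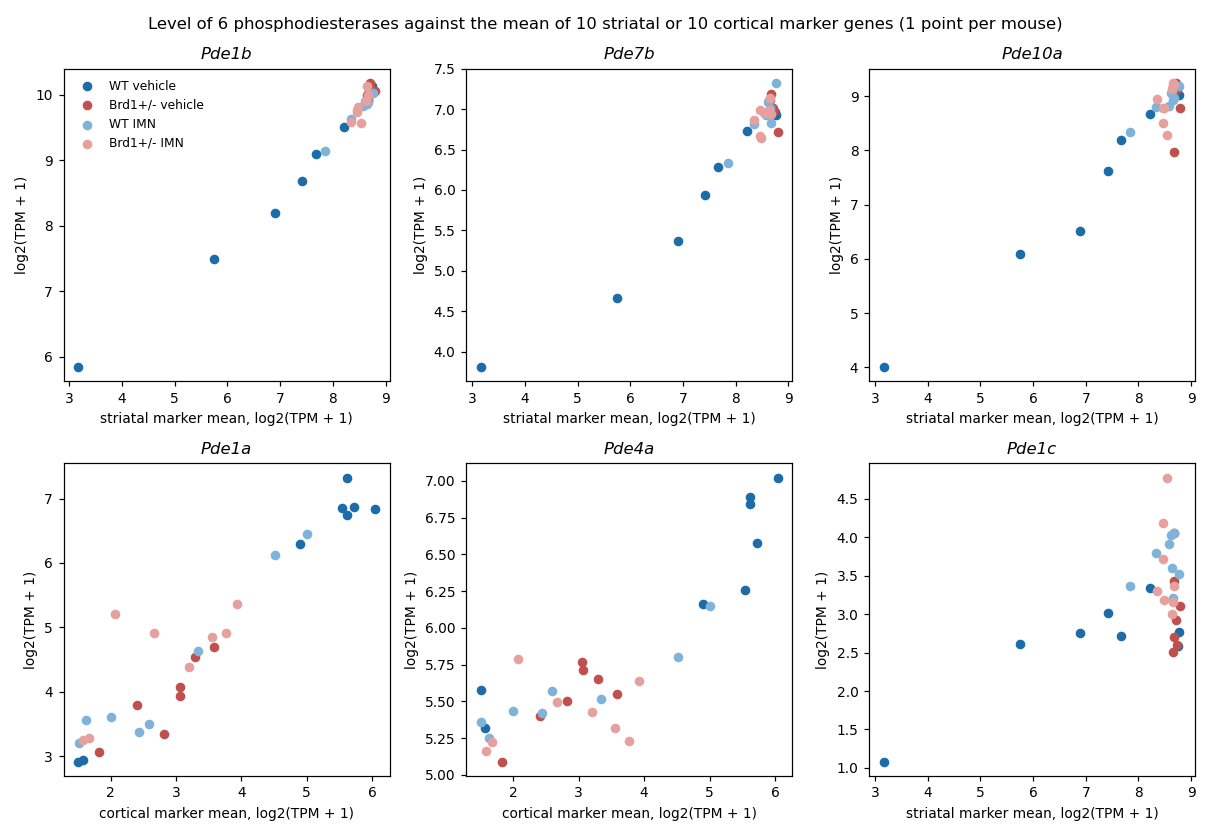
Level of 6 genes, as log2(TPM + 1), against the mean log2(TPM + 1) of 10 striatal or 10 cortical marker genes, 1 point per mouse, colored by group. *Pde1b*, *Pde7b* and *Pde10a* lie along a line set by WT vehicle mice of low striatal marker mean (down to 3.17), *Pde1a* and *Pde4a* climb with the cortical marker mean, and *Pde1c* varies among mice of nearly the same striatal marker mean.

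Of 11 other genes listed for phosphodiesterase catalytic subunits, *Pde9a*, a cGMP-specific enzyme, was the most abundant with a mean of 21.8 TPM in WT vehicle mice, above the means of *Pde4d* (15.0 TPM) and *Pde1c* (5.57 TPM) there, 8 passed the filter on low values, and *Pde6c*, a cone photoreceptor enzyme, was listed at 0 in all mice. Under vehicle 2 of the 8 were called in *Brd1*+/- mice, both lower, where 12.1% of all genes were called lower, namely *Pde7a* (−0.44, adjusted p = 0.0556), a relative of *Pde7b*, and *Pde11a* (−0.52, adjusted p = 0.0574), at 0.692 against 0.164 TPM. For genotype under IMN and for IMN in WT 0 of the 8 were called by limma, with 1 and 3 at an unadjusted p under 0.05. With IMN 1 of the 8, *Pde11a*, was called higher in *Brd1*+/- mice (0.34, adjusted p = 0.526), as were 0.869% of all genes, and it was the 1 of 8 called for the interaction (3.74% of all genes), with a difference between the genotypes of 0.65 (adjusted p = 0.261).

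A list of 51 genes that make cyclic nucleotides or act after them was read from the same fits, at limma's unadjusted p under 0.01, and adjusted p are given for the genes named. Under vehicle 4 of the 50 tested were higher and 9 lower in *Brd1*+/- mice, against 1.47% and 12.1% of all genes, with a median log2 fold change of −0.10 against −0.13. Without the 6 WT vehicle mice set apart, an alternative chosen after seeing the data, 0 of the 50 pathway genes, 0 of 6 other phosphodiesterases and 0.892% of all genes were called by limma. The smallest p among the lower were those of *Akap7*, a kinase A anchor (−0.74, adjusted p = 0.0556), *Prkar1b*, a regulatory subunit of protein kinase A (−1.19, adjusted p = 0.0556), and *Npr2*, a receptor guanylyl cyclase (−0.73, adjusted p = 0.0556). Among the higher were the anchors *Akap5* (0.86, adjusted p = 0.0556) and *Akap9* (0.74, adjusted p = 0.0592) and the kinase A substrate *Arpp19* (0.48, adjusted p = 0.0658).

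For genotype under IMN 0 of 50 were called by limma, with 0 at an unadjusted p under 0.05. With IMN in WT mice 2 of 51 were called lower, near the 5.6% of all genes, *Prkar1b* (−0.93, adjusted p = 0.143) and *Prkaca*, the catalytic subunit of protein kinase A (−0.36, adjusted p = 0.141), and 0 higher. Without the 8 mice set apart 3 of 50 were called higher and 1 lower, where 2.09% of all genes were called. With IMN in *Brd1*+/- mice 1 of 50 was called lower, where 0.964% of all genes were, *Calm2*, which encodes calmodulin (−0.20, adjusted p = 0.497). For the interaction 2 of 51 were called at the nominal threshold, near the 3.74% of all genes, *Adcy2*, an adenylyl cyclase (1.08, adjusted p = 0.261), and *Arpp19* (−0.55, adjusted p = 0.261).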

How the data were processed

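CPu punches of 31 female mice, 1 library per mouse, were sequenced with single-end reads on a BGISEQ-500 instrument. Per the study's methods and processing notes the authors aligned reads to GRCm38 with HISAT2 2.1.0 and quantified genes with StringTie 1.3.4. The authors deposited TPM, scaled to gene length and to a fixed sum (999787 to 999918 per mouse). TPM keeps no depth, so no counting error is given and precision rests on the spread between mice, and 22579 to 23766 genes exceeded 0.1 TPM in a mouse. No pair of mice held identical values. Groups and mouse numbers came from the sample labels, and 0 columns were left unused. Symbols and positions came from GENCODE M21, which held 52403 of 52636 identifiers, and promoters from RefSeq.

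Separate limma fits (limma 3.58.1, R 4.3.3) were made on log2(TPM + 1) for each of the 4 pairs of groups compared, and 1 over all mice for the interaction, with the prior variance following the mean level. A gene was tested where 7 or more of the mice in the fit exceeded 0.1 TPM. Fold changes are on the log2(TPM + 1) scale, which understates changes of low genes. Tests were two-sided, with the study's thresholds, an unadjusted p under 0.01 and a Benjamini-Hochberg FDR of 5% over all genes tested. The authors tested read counts, which TPM cannot replace, so their test was not run. The fit was run on simulated data with the means and spreads of the *Brd1*+/- vehicle group. The spread of the WT vehicle group, which held most of the mice set apart, was not simulated.

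The members and lists were chosen with earlier results of these data known. Genes named beside the members are *Brd1*, up to 3 other phosphodiesterases with the smallest p under 0.01 in each comparison and the most abundant one, up to 3 pathway genes with the smallest p under 0.01 in each direction, and the gene most like each member by Spearman's rho. *Gm45837* and *Gm48420* are named for overlapping exons and *Pde6c* for being listed at 0. The 8 mice set apart are those above the widest gap in the cortical marker mean, a division made after the data were seen. Alternatives were a pseudocount of 0.1, a mean of at least 1 TPM, no filter, median-of-ratios scaling, quantile normalization, no trend, sample weights, the mouse number as block, all groups in 1 fit, either marker mean as covariate, exact permutation tests, and each mouse left out in turn.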

Additional observations from a re-analysis of the deposited data

Results flagged for a closer look

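Values far from the rest of their group were looked for in 40 groups of values (10 genes in 4 groups), where chance alone sets apart about 1 in 20 groups, and 2 were found. *Pde4b* was 27.3 TPM in WT vehicle mouse 2, the mouse with the lowest striatal marker mean (3.17), and its gap to the next mouse was 0.583 of the range of the group. *Pde8b* was 98.4 TPM in *Brd1*+/- vehicle mouse 6, with a gap of 0.586 of the range, where the striatal marker mean (8.79) was the highest of all mice.

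The effect of IMN on *Pde7b* differed between the genotypes by −1.19 on the log2 scale (*Brd1*+/- minus WT, adjusted p = 0.261, limma), and the difference was −0.20 without the 8 mice of high cortical marker mean.

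The 4 Y-linked genes, which no comparison used, summed to 26.8 TPM in WT vehicle mouse 7, where the next highest mouse had 0.188 TPM and all mice are labelled female. Without this mouse *Pde4a* had −0.81 under vehicle (adjusted p = 0.0976, limma) and *Pde1c* 1.09 with IMN in WT (adjusted p = 0.208, limma).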

How the results depend on the processing

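Depth is not given by TPM, so precision is read from the spread between mice alone, and each group held 7 or 8 mice. The 8 mice set apart limit these results as well, since 6 were WT vehicle, 2 WT IMN and 0 *Brd1*+/- mice. Of 40 group means of the members and the fold changes recomputed under the settings other than leaving out 1 mouse (the replicate block, which drops up to 3 mice, and the fit without the 8 mice set apart included), the 40 means stayed within their SD after median-of-ratios scaling, 506 fold changes kept their direction and side of the threshold, 51 passed it newly, 21 lost it and 42 reversed. Under all settings that leave every mouse in, *Pde1c* stayed called with IMN in WT mice and 0 members were called for genotype under IMN. The causes of the changes listed here were not tested.

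Members called lower under vehicle in *Brd1*+/- mice went from 2 to 1 with a pseudocount of 0.1, without a filter, without a trend in the variance, with median-of-ratios scaling, with quantile normalization and in exact permutation tests, and to 0 with the cortical or striatal marker mean as covariate and without the 8 mice set apart, an alternative chosen after seeing the data. Those called higher went from 0 to 3 with either scaling, to 4 with sample weights or with all 4 groups in 1 fit and to 1 in exact permutation tests. The share called over all genes moved too, from 13.6% to 26.5% with weights, 19.7% in 1 fit, 9.23% and 9.53% with median-of-ratios and quantile scaling, 1.93% and 1.28% with the cortical and striatal covariate and 0.892% without the 8 mice. With a pseudocount of 0.1, without a filter and without a trend it was 12.9%, 9.6% and 13.4%. Exact permutation tests were run on the 10 members only, so their counts have no share over all genes beside them. With IMN in WT mice the called higher went from 1 to 3 with either scaling or exact permutation tests and to 5 with weights or 1 fit, and the called lower from 1 to 2 with weights and to 0 with either covariate or without the 8 mice, while the share over all genes went from 6.95% to 5.98% and 5.8% with the scalings, 20.3% with weights, 13.5% in 1 fit, 1.33% and 1.22% with the covariates and 2.09% without the 8 mice. With IMN in *Brd1*+/- mice the called lower went from 1 to 0 with either scaling, no trend, 1 fit or the striatal covariate and to 2 with the cortical one, and of all genes 1.83% were called as deposited, 1.98% and 2.0% with the scalings, 1.85% with no trend, 1.17% in 1 fit and 0.982% and 2.13% with the striatal and cortical covariate. For the interaction the called lower went from 1 to 2 with either scaling, to 4 with weights and to 0 with either covariate or without the 8 mice, and the called higher from 0 to 2 with weights, where the share over all genes went from 3.74% to 3.18% and 3.39% with the scalings, 13.6% with weights, 0.941% and 0.512% with the cortical and striatal covariate and 0.597% without the 8 mice.

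The counts at an FDR of 5% also depended on the fit. Under vehicle they went from 0 to 1833 genes and 1 member (*Pde4a*) at a mean of at least 1 TPM, to 6854 genes and 6 members with weights and to 4963 genes and 6 members in 1 fit. With IMN in WT mice they went from 1 gene and 0 members to 4857 and 7 with weights and to 2291 and 6 in 1 fit, and for the interaction from 0 to 2624 genes and 5 members with weights.

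A pairing of mice by their numbers was looked for and not seen. Per the study's methods WT and *Brd1*+/- mice were litter-matched, but the sample titles do not give litters. A pairing weaker than the other differences between mice would not show in this check. Same-numbered mice correlated in their deviations from the group means at −0.158 to 0.0705 for genotype under vehicle, −0.226 to 0.226 for genotype under IMN, −0.432 to 0.452 for IMN in WT and −0.0802 to 0.231 for IMN in *Brd1*+/- mice, and a mouse correlated best with its own number in 0 of 7, 2 of 8, 1 of 8 and 1 of 7 pairs. With the number as a replicate block the called higher were 4 under vehicle, 2 for IMN in WT, 2 for IMN in *Brd1*+/- mice and 2 for the interaction, and the called lower 2, 1, 2 and 4, where 17.9%, 5.08%, 2.16% and 11.1% of all genes were called. At an FDR of 5% the block gave 3604 genes and 6 members under vehicle and 934 genes and 2 members for the interaction. Since no *Brd1*+/- vehicle mouse had the number 8, fits that include that group dropped the mice numbered 8 (1 mouse under vehicle, 1 for IMN in *Brd1*+/- mice and 3 for the interaction), and the fold changes under vehicle equal those without WT vehicle mouse 8.

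Leaving out 1 mouse at a time gave 0 to 3 higher and 1 to 2 lower members under vehicle, 1 to 4 and 1 to 2 for IMN in WT, 0 to 2 lower for IMN in *Brd1*+/- mice, and 0 to 2 higher and 0 to 4 lower for the interaction, while the share over all genes ran from 8.89% to 22.4%, 3.88% to 15.3%, 1.34% to 2.18% and 2.16% to 10.2%. Under vehicle, with IMN in WT and for the interaction the most calls came without WT vehicle mouse 6 or 8. It changed the sign of *Pde4d* under vehicle (−0.0873 to 0.0561) and with IMN in WT (−0.0864 to 0.0450), of *Pde1b* (−0.0464 to 0.0809), *Pde4b* (−0.00238 to 0.0928), *Pde7b* (−0.12 to 0.0229), *Pde8b* (−0.0523 to 0.0658) and *Pde10a* (−0.12 to 0.0415) for genotype under IMN, and of *Pde8b* (−0.0629 to 0.10) and *Pde10a* (−0.23 to 0.0130) with IMN in *Brd1*+/- mice.

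With median-of-ratios scaling *Pde4d* reversed to 0.17 under vehicle, 0.11 with IMN in WT and −0.00541 for the interaction, *Pde7b* and *Pde10a* to 0.0106 and 0.00343 for genotype under IMN and *Pde8b* to −0.00742 with IMN in *Brd1*+/- mice. With quantile normalization *Pde4d* reversed to 0.20, 0.13 and −0.0294 in the same 3 and *Pde7b* to 0.0137 for genotype under IMN, and with weights *Pde8b* to −0.0179 there. With the cortical covariate *Pde4d* reversed to 0.18 under vehicle and 0.12 with IMN in WT, and *Pde1a* to 0.0655 with IMN in WT. With the striatal covariate the reversed values were −0.0389 for *Pde1c*, −0.0772 for *Pde4b* and 0.0660 for *Pde4d* under vehicle, −0.0293 for *Pde2a* and 0.0510 for *Pde4d* with IMN in WT, −0.28 for *Pde1a*, 0.00018 for *Pde1b*, −0.0305 for *Pde4d* and 0.16 for *Pde10a* with IMN in *Brd1*+/- mice, and 0.12 for *Pde4b* and 0.0223 for *Pde8b* in the interaction.

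Without the 8 mice set apart the reversed values were 1.00 for *Pde1a*, −0.0725 for *Pde1b*, −0.0871 for *Pde2a*, 0.0799 for *Pde4a*, 0.39 for *Pde4d* and −0.16 for *Pde10a* under vehicle, −0.0845 for *Pde1b* and −0.0250 for *Pde8b* for genotype under IMN, 0.72 for *Pde1a*, −0.21 for *Pde1b*, −0.18 for *Pde2a*, 0.39 for *Pde4d* and −0.0813 for *Pde10a* with IMN in WT, and −0.12 for *Pde1a*, −0.0922 for *Pde4a*, −0.27 for *Pde4d* and 0.0119 for *Pde10a* in the interaction.

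Of the correlations with marker means, median-of-ratios scaling moved those with the cortical mean to −0.66 for *Pde4b*, −0.16 for *Pde4d* and −0.62 for *Pde8b*, and that of *Pde4d* with the striatal mean to 0.20. Without the 2 mice farthest from the median, r with the striatal mean was 0.27 for *Pde1c*, 0.30 for *Pde4b*, 0.16 for *Pde8b* and 0.92 for *Pde10a*, and with the cortical mean −0.34 for *Pde4b* and −0.22 for *Pde8b*.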

Other observations

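*Pde1c* and *Pde4b* went with each other more closely than with either marker mean. Pearson's r on log2(TPM + 1) was 0.89 over the 31 mice, 0.85 over the 23 mice without high cortical markers, and 0.96, 0.78, 0.59 and 0.88 within WT vehicle, *Brd1*+/- vehicle, WT IMN and *Brd1*+/- IMN mice. Over those 23 mice, pooled over the groups, *Pde1c* had r = −0.68 with *Pde1b* and −0.68 with *Pde2a*, where over all mice it had 0.54 and 0.29. Within the groups, in the same order and with all their mice, r was 0.76, −0.57, 0.31 and −0.61 with *Pde1b*. With *Pde2a* it was 0.58, −0.62, −0.26 and −0.53. The points share mice and the fixed sum of TPM, and no test was made.

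Among 17338 other genes of at least 1 TPM on average, the gene with the highest Spearman rho to *Pde1c* was *Oprm1*, the mu opioid receptor (rho = 0.87), and *Oprm1* was also the gene most like *Pde4b* (rho = 0.85). Over the 23 mice these were 0.89 and 0.90. The gene most like *Pde1a* was *Cckbr*, a cholecystokinin receptor (rho = 0.97), that most like *Pde4a* *Fam57b* (rho = 0.94), and that most like *Pde1b* *Dbp*, a circadian transcription factor (rho = 0.95). *Spata2l* was most like *Pde2a* (rho = 0.93), *Meis2*, a homeobox factor, most like *Pde7b* (rho = 0.90), *Peli2* most like *Pde10a* (rho = 0.90) and *Gm9517* most like *Pde4d* (rho = 0.82). *Pde8b* had no close match, with *Shcbp1l* at a rho of 0.65. Over the 23 mice rho was lower for *Meis2* (0.76), *Peli2* (0.80) and *Fam57b* (0.84), and 0.94 for *Cckbr*, 0.92 for *Dbp*, 0.90 for *Spata2l*, 0.83 for *Gm9517* and 0.63 for *Shcbp1l*.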
